A study of Mus musculus with 20 samples.

Results

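The effect of methamphetamine (Meth) in mice that express the HIV-1 protein Tat was examined by setting 5 Tat+/Meth mice against 5 Tat+/Sal mice, which are 10 of the 20 mice of the study. Each mouse gave 1 one-colour expression array. All were males of the C57BL/6J background that carried a tetracycline-binding protein under the astrocyte promoter GFAP together with a Tat transgene under a tetracycline-responsive element, and all received doxycycline at 100 mg/kg for 7 days, which switches Tat on in astrocytes. Tat+/Meth mice were injected with Meth at 2 mg/kg on 7 days, and Tat+/Sal mice with saline instead. According to the methods, all mice, the saline group included, were later challenged with 1 dose of Meth after a period of abstinence, so the comparison is between repeated and single exposure if the methods apply to these mice. The labels give a brain hemisphere, an age of 6 to 7 weeks and a harvest at 24 h after the last injection, whereas the methods give the caudate putamen, older mice and a harvest soon after the challenge. The other 10 mice, Tat−/Meth and Tat−/Sal, had the same doxycycline and lacked the Tat transgene. The Tat transcript was not analysed here, so the Tat+ label was taken as given.

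Meth releases dopamine from its terminals in the striatum, where medium spiny neurons carry dopamine receptors and answer with a burst of immediate early genes. Among these are the AP-1 transcription factors, Fos and Jun family proteins that pair with each other on DNA and regulate later genes. Repeated Meth leads to sensitization, a stronger locomotor response to a later dose. Tat enters or stresses neurons and glia and is studied as a cause of neurological disease in people with HIV.

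The 10 arrays lay on a pair of slides. Tat+/Meth replicates 1 to 3 were on slide 2, and Tat+/Meth replicates 4 and 5 shared slide 3 with all 5 Tat+/Sal arrays, so slide 3 is the one slide with both groups and gives a comparison of 2 against 5 arrays. Signals are processed intensities on the log2 scale, each array being scaled by its own 75th percentile, and are called levels below. Between 55.3% and 67.3% of the probes of an array were well above background, and arrays of a group correlated over genes at 0.985 to 0.996. All 9 striatal genes checked, Drd1, Drd2, Adora2a, Penk, Tac1, Ppp1r1b, Rgs9 and Pde10a among them, were well above background on all 10 arrays. So were 12 of 18 cortical markers and 12 of 19 markers of thalamus, hypothalamus and septum, so genes used as markers of other regions were measured beside the striatal ones. In such bulk tissue, fewer cells of a type and less RNA per cell cannot be told apart.

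Of 14901 genes tested, none passed a Benjamini–Hochberg adjusted p under 0.05 in limma, with or without the 2-fold limit (0% of the genes tested). The smallest adjusted p was 0.134. At an unadjusted p under 0.05 there were 1842 genes (12.4%), of which 769 (5.16%) were higher and 1073 (7.2%) lower in Tat+/Meth mice, so 41.7% of them were higher. That split depended on the scaling, with 16.9% higher when arrays were scaled to their median and 87.2% without scaling, which put the median of all genes at -0.106 and 0.067 in place of 0.003. The differences were small, and 98.3% of the genes lay within 0.5 log2 units of no difference. The 5 and 5 arrays did not overlap for 133 genes that were higher (0.893%) and for 213 that were lower (1.43%). Since no gene passed the adjusted test, the genes and gene lists below are ranked and described, and words such as higher and lower give the direction of the means only. With slide as a term in the fit to all arrays, the difference rests on the arrays of slide 3, and values given below as within slide 3 come from that fit. None passed the adjusted test there (0% of the genes tested) and 729 genes (4.89%) were under an unadjusted p of 0.05, 342 of them higher (2.3%) and 387 lower (2.6%). When the 7 arrays of slide 3 were fitted without the others, 674 genes were under it, 388 higher and 286 lower, so the balance of higher and lower genes turned.

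The arrays did not separate by treatment on the first principal component, which took 30.2% of the variance. Tat+/Sal replicate 4 had the highest score (33.8), followed by Tat+/Sal replicate 5 (18.8) and Tat+/Meth replicate 4 (10.9). Scores averaged -5.1 ± 10.6 (SD) for Tat+/Meth and 5.1 ± 20.6 for Tat+/Sal mice, and an exact two-sided permutation test gave p = 0.357. On the second component, with 15.6% of the variance, the means were -6.3 ± 11 and 6.3 ± 9.4 (exact two-sided permutation test, p = 0.0952; the smallest p that 5 against 5 arrays allow is 0.00794).

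**Figure D1:**
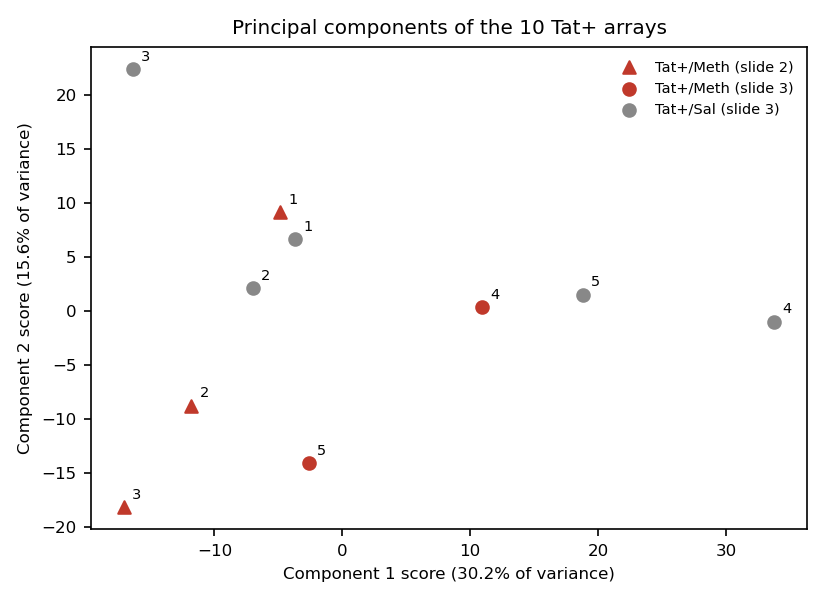
Scores of the 10 Tat+ arrays on the first and second principal components, in units of the component score, numbered by replicate, with colour for the group and shape for the slide. Tat+/Sal replicates 4 and 5 lie farthest to the right, at 33.8 and 18.8, and the groups intermingle along the first component.

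Bex6, Fbxo17 and Tuba4a shared the smallest adjusted p of 0.134, and they were picked out after their values were seen. Fbxo17, which encodes an F-box protein of ubiquitin ligases, stood at 10.91, 11.10, 11.09, 10.81 and 10.88 in Tat+/Meth replicates 1 to 5 and at 10.39, 10.61, 10.57, 10.47 and 10.18 in Tat+/Sal replicates 1 to 5. Every Tat+/Meth array was above every Tat+/Sal array, with a difference of 0.51 ± 0.09 (SE) on the log2 scale and 0.40 within slide 3. Tuba4a, an alpha-tubulin of neurons, was at 15.61, 15.61, 15.71, 15.66 and 15.69 in Tat+/Meth and at 15.90, 15.93, 15.85, 15.87 and 15.96 in Tat+/Sal mice. Its groups did not overlap either, and its difference of -0.24 ± 0.04 was a small one between tight groups. Bex6, of the brain-expressed X-linked family, was at 5.99, 6.39, 6.48, 5.44 and 5.60 against 4.78, 5.53, 4.30, 4.33 and 3.95, a difference of 1.40 ± 0.25. All 5 Tat+/Meth arrays but only 1 of the 5 Tat+/Sal arrays had it well above background, and its Tat+/Meth mean was 6.28 on slide 2 and 5.52 on slide 3. The difference of Bex6 was 0.95 within slide 3, and Tat−/Sal mice on slide 2 averaged 6.3.

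Among the AP-1 transcription factors, Atf3, Fos and Fosb were higher in Tat+/Meth mice at an unadjusted p under 0.05, and the Jun genes lay near no difference. Of 12 AP-1 genes with a probe, 10 passed the signal filter, and Fosl1 and Batf did not. Of the 10, 3 were higher and none lower (30% higher, against 5.16% of all genes), with a median difference of 0.032 against 0.003 over all genes. The promoters of the 3 genes and of Btg2, an antiproliferative immediate early gene described below, are shown because these genes lead the positive side of the activity-induced lists at an unadjusted p under 0.05. Each is the window around the start of the gene, most of it upstream, 5′ to 3′ on the gene's strand, as RefSeq gives it for GRCm38.p6. They lie at chr1:191183284-191183583 on the minus strand (Atf3), chr12:85473640-85473939 on the plus strand (Fos), chr7:19309996-19310295 on the minus strand (Fosb) and chr1:134079106-134079405 on the minus strand (Btg2), and the genome build is not the one the array annotation uses. Capitals mark TGACG or its reverse complement CGTCA, the core of the cAMP response element.
Atf3: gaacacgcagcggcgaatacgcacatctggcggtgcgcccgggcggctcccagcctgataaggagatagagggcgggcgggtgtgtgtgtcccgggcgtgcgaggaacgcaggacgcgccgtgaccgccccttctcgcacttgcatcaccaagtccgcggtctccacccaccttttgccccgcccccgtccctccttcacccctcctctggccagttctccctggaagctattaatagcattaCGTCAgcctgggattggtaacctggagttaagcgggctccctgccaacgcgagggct
Fos: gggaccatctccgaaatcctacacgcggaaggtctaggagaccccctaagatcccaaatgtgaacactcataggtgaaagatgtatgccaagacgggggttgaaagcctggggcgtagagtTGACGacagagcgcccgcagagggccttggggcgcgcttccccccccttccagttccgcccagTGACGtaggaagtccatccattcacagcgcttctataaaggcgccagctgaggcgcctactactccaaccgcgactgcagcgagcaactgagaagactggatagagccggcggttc
Fosb: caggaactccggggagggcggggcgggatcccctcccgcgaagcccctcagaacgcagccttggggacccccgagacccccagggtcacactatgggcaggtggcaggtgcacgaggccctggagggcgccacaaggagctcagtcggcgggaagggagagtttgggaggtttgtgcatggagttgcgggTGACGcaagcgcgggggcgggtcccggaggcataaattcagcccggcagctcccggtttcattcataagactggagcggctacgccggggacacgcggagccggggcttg
Btg2: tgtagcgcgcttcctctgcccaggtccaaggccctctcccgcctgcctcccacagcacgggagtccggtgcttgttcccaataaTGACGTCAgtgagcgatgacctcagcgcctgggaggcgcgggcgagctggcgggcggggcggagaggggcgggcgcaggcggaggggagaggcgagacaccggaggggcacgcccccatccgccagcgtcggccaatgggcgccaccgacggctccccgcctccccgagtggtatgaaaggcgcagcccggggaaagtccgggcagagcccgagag

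The core TGACG, searched on both strands, is in all 4 of these promoters and in 20.8% of the 32851 promoters of the table. In Btg2 the capitals spell the full palindrome TGACGTCA, which overlaps a core on each strand and is in 1.79% of all promoters. The AP-1 site TGANTCA, found in 7.81% of promoters, and the CArG box, found in 1.63%, had no match in these 4 windows. A match describes the letters of a sequence and is no measure of binding. Promoters of activity-induced genes without a difference are not shown, so whether the core goes with the difference was not tested.

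Atf3, a stress-induced member of the family, was at 9.06, 8.68, 9.21, 9.82 and 9.55 in Tat+/Meth replicates 1 to 5 and at 8.52, 8.41, 7.57, 7.75 and 8.43 in Tat+/Sal replicates 1 to 5. The lowest Tat+/Meth array was above the highest Tat+/Sal array. The difference was 1.13 ± 0.28 (SE), or 2.19-fold (limma, unadjusted p = 0.000699, adjusted p = 0.214), and 1.55 within slide 3. Fos, the classical marker of neuronal activity, was at 11.21, 10.76, 11.46, 11.40 and 11.51 against 11.02, 10.79, 10.32, 10.21 and 10.40. Tat+/Meth replicate 2 fell below both of the highest Tat+/Sal arrays, and the other 4 Tat+/Meth arrays were above all Tat+/Sal arrays. The difference was 0.72 ± 0.20 (adjusted p = 0.216), and 0.91 within slide 3. Fosb, whose products build up with repeated drug exposure, was at 11.60, 11.54, 11.91, 11.89 and 12.04 against 11.42, 11.61, 11.54, 11.02 and 11.60. The groups overlapped, with Tat+/Sal replicate 4 the lowest, and the difference was 0.36 ± 0.14 (adjusted p = 0.306) and 0.53 within slide 3.

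The other AP-1 genes lay closer to 0. Jun averaged 12.32 ± 0.31 (SD) over Tat+/Meth and 12.30 ± 0.46 over Tat+/Sal mice, with Tat+/Sal arrays from 11.67 to 12.84 that span every Tat+/Meth array. Junb differed by 0.05 and Fosl2 by 0.06, and within slide 3 Jun, Junb and Fosl2 differed by 0.17, 0.24 and 0.33. The sign of Jun, Junb and Fosl2 turned under some scalings or when single arrays were left out. Jund (-0.13), Jdp2 (-0.05), Batf2 (-0.14) and Batf3 (-0.17) had negative differences, with unadjusted p above 0.05 for each, and the signs of Jdp2 and Batf3 also turned under an alternative. The mean of the 10 AP-1 genes, centred over the 10 arrays, ran from -0.17 to 0.26 in Tat+/Meth and from -0.33 to 0.02 in Tat+/Sal mice, and Tat+/Sal replicate 4 was the lowest array. Without that array, 2 of the 10 genes were higher at an unadjusted p under 0.05, against 579 of all 14901 genes. The median difference was then -0.075, whereas within slide 3 it was 0.207 and 3 genes were higher, as on all arrays.

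**Figure D2:**
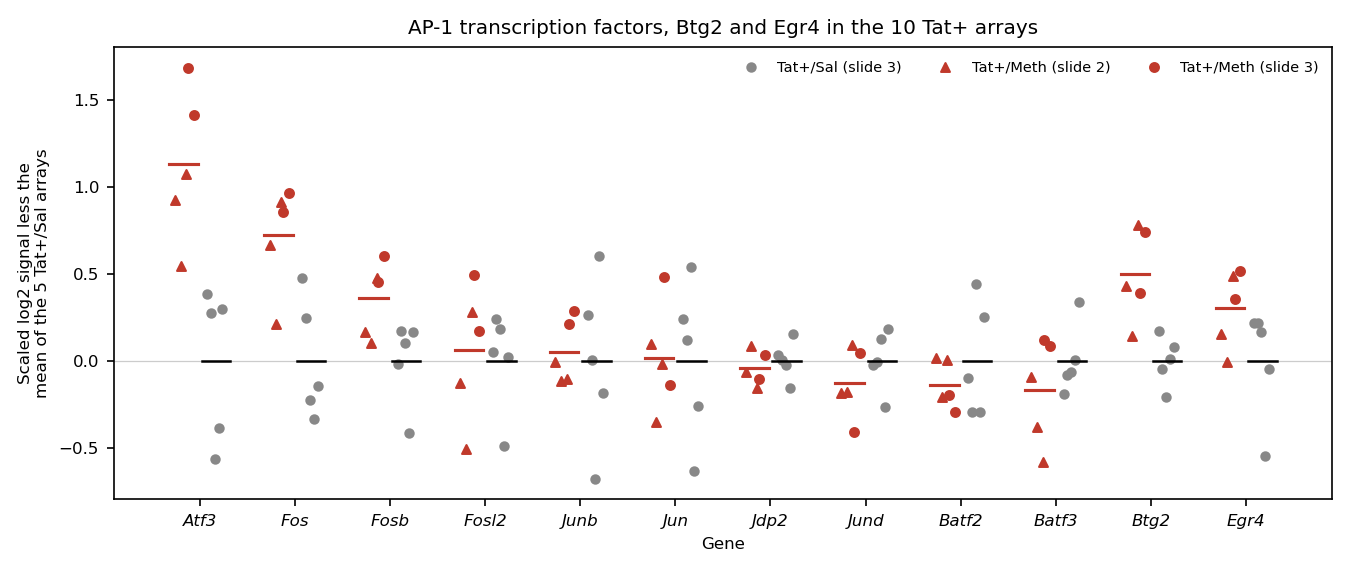
Level of each of the 10 tested AP-1 genes, of Btg2 and of Egr4 on each Tat+ array, in log2 units less the mean of the 5 Tat+/Sal arrays, with bars for group means and triangles for slide 2. Atf3 is the one AP-1 gene whose groups do not overlap, and the mean difference goes from 1.13 for Atf3 to 0.01 for Jun and -0.17 for Batf3.

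Other activity-induced immediate early genes had more positive than negative differences but more lower than higher genes at an unadjusted p under 0.05. Of 34 with a probe, 31 were tested, 3 were higher (9.68%) and 5 lower (16.1%) at an unadjusted p under 0.05, against 5.16% and 7.2% of all genes. Differences were positive for 21 and negative for 10, with a median of 0.084, and within slide 3 the median was 0.113 with 6 genes higher and 0 lower at an unadjusted p under 0.05. Btg2 was at 9.68, 9.39, 10.03, 9.64 and 9.99 in Tat+/Meth and at 9.42, 9.20, 9.04, 9.26 and 9.33 in Tat+/Sal mice. One Tat+/Meth array lay below the highest Tat+/Sal array, and the difference was 0.49 ± 0.17, with 0.57 within slide 3. Without Tat+/Sal replicate 4, 1 gene of the list was higher and 4 lower, where over all 14901 genes 579 were higher and 1076 lower. Egr4, a zinc finger factor of the Egr family, was higher by 0.30 ± 0.14, and Gadd45g, a stress sensor involved in DNA demethylation, by 0.17 ± 0.07. The lower genes were Trib1 (-0.25), Ier5 (-0.23), the polo-like kinases Plk3 (-0.23) and Plk2 (-0.18), and Per1 (-0.21), and within slide 3 none of the 5 reached an unadjusted p under 0.05. The other tested members included Egr1 (-0.04) and Arc (0.11), a synaptic gene induced by activity. The 9 MAP kinase phosphatases tested, which switch off the kinases upstream of Fos, held no gene at an unadjusted p under 0.05 and ranged from -0.14 (Dusp7) to 0.09 (Dusp1).

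A list of 12 targets of AP-1, p53 and CREB, drawn from the study's network, had 2 higher and 2 lower members. Each was 16.7% of the list, against 5.16% of all genes higher and 7.2% lower, and within slide 3, 1 was higher and 1 lower. Tnfrsf10b, a death receptor, was at 7.68, 7.66, 7.73, 7.24 and 7.12 in Tat+/Meth and between 6.93 and 7.10 in Tat+/Sal mice. The groups did not overlap, but the 3 arrays on slide 2 averaged 7.69 and the 2 on slide 3 averaged 7.18, and the difference of 0.46 on all arrays was 0.15 within slide 3. Creb1, the transcription factor that binds the cAMP response element, was higher by 0.18 with the brightest probe and lower by 0.08 with another. Trp53, which encodes p53, was lower by 0.46 ± 0.19 and its groups did not overlap, and Ywhaz, a 14-3-3 protein, was lower by 0.46 ± 0.15.

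Circadian clock genes lay mostly below the Tat+/Sal mice. The clock is a loop in which Clock and Bmal1 drive the Per, Cry and Nr1d genes, whose products act back on them. Of 22 genes tested, 16 had a negative difference, 4 were lower and 1 higher at an unadjusted p under 0.05 (18.2% and 4.55%, against 7.2% and 5.16% of all genes), and the median was -0.103, and -0.15 within slide 3. Bhlhe40, a repressor of Clock and Bmal1 activity, was at 10.19, 10.27, 9.67, 10.03 and 10.03 in Tat+/Meth and at 10.60, 10.44, 10.64, 10.71 and 10.58 in Tat+/Sal mice. Its groups did not overlap, and the difference was -0.56 ± 0.17, the same within slide 3 (limma, adjusted p = 0.236). Nr1d1, the nuclear receptor Rev-erb alpha, was at 10.26, 10.18, 9.73, 9.67 and 10.01 against 10.78, 10.18, 10.32, 10.23 and 10.41, and differed by -0.41 ± 0.18 with overlapping groups. Its relative Nr1d2 differed by -0.25 ± 0.11 and the period gene Per1 by -0.21 ± 0.10. Nfil3, a repressor that Nr1d1 itself holds down, went the other way, at 10.61, 10.76, 11.27, 10.92 and 10.98 against 10.58, 10.63, 10.39, 10.31 and 10.49. One Tat+/Meth array lay just under the highest Tat+/Sal array, and the difference was 0.43 ± 0.13.

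Genes of dopamine signalling had differences of both signs. Of 21 genes of dopamine signalling tested, 4 were lower and 1 higher at an unadjusted p under 0.05 (19% and 4.76%, against 7.2% and 5.16% of all genes), 13 differences were negative and 8 positive, and the median was -0.074. Within slide 3, 1 was lower and none higher, and the median was -0.114. Without Tat+/Sal replicate 4, 7 were lower and 2 higher, where over all 14901 genes 1076 were lower and 579 higher. Drd2, the D2 dopamine receptor of striatopallidal neurons, was at 11.15, 11.06, 10.67, 11.16 and 11.11 in Tat+/Meth and at 11.50, 11.34, 11.11, 11.32 and 11.61 in Tat+/Sal mice. The groups overlapped, since Tat+/Sal replicate 3 lay among the Tat+/Meth arrays, and the difference was -0.35 ± 0.13, and -0.24 within slide 3. Ppp1r1b, which encodes the dopamine-regulated phosphatase inhibitor DARPP-32, was at 18.10, 18.11, 18.12, 17.97 and 18.10 against 18.17, 18.19, 18.41, 18.21 and 18.34. Its groups did not overlap, with a difference of -0.19 ± 0.07, and -0.23 within slide 3. Pde1b, a phosphodiesterase, differed by -0.17 ± 0.06, and Rgs9, which shortens dopamine receptor signals and was named after its value was seen, by -0.14 ± 0.06. Within slide 3 Pde1b and Rgs9 differed by -0.11 and -0.12, each above an unadjusted p of 0.05. Slc18a2, the vesicular monoamine transporter of dopamine terminals, was higher by 0.50 ± 0.20, and by 0.23 within slide 3 at an unadjusted p above 0.05. It was at 8.22, 8.12, 8.52, 8.02 and 7.63 against 8.27, 7.86, 7.51, 7.54 and 6.83, so that the lowest array was a Tat+/Sal one.

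The 26 medium spiny neuron markers, some of which are also on that list, had 5 lower and 1 higher member (19.2% and 3.85%, against 7.2% and 5.16% of all genes) and a median of -0.027. Within slide 3, 3 were lower and 1 higher, and the median was -0.051. Without Tat+/Sal replicate 4, 9 were lower and 1 higher, where over all 14901 genes 1076 were lower and 579 higher. Lrrc10b was at 14.19, 14.18, 13.34, 13.88 and 13.80 in Tat+/Meth and at 14.58, 14.43, 14.31, 14.20 and 14.25 in Tat+/Sal mice, without overlap, and differed by -0.48 ± 0.15. Foxp2, a transcription factor of these neurons, was higher by 0.23 ± 0.07 with the brightest probe and lower by 0.05 with another. None of the 19 opioid and striatal neuropeptide genes was under an unadjusted p of 0.05, and 13 of them had a positive difference (median 0.071). No cortical marker of 14 tested was under 0.05 (median -0.055), and Tat+/Sal replicate 1 had the highest cortical mean, 0.58 above the average of the 10 arrays. The part of tissue composition in these differences was not tested.

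**Figure D3:**
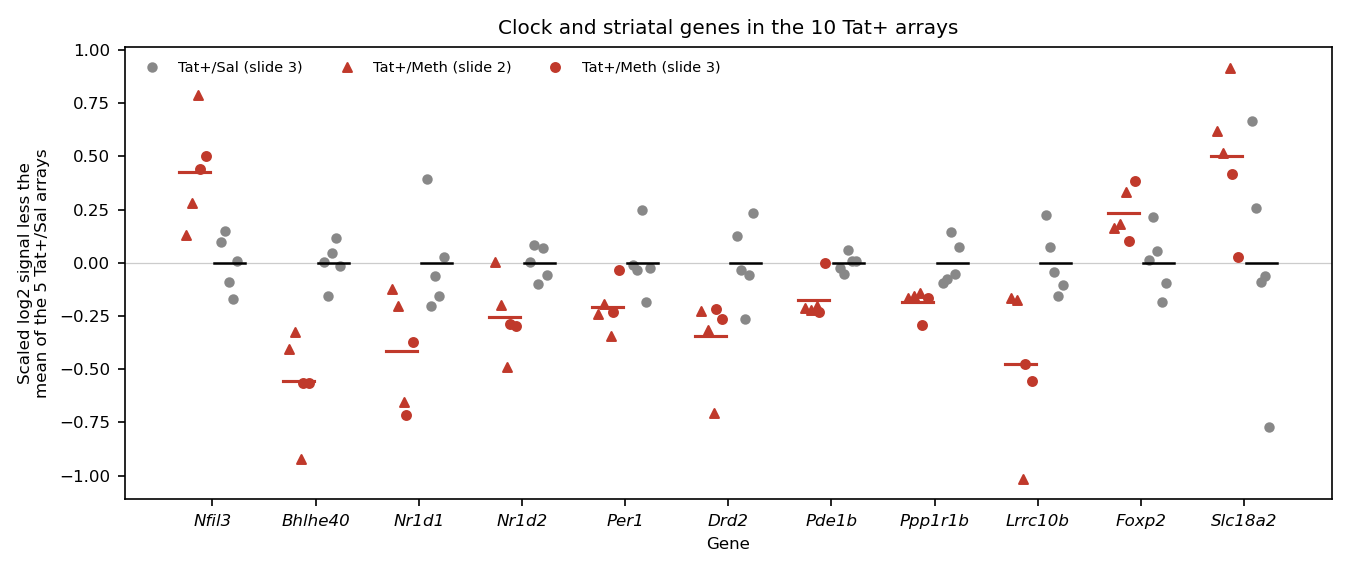
Level of 5 clock genes and 6 striatal or dopamine genes on each Tat+ array, in log2 units less the mean of the 5 Tat+/Sal arrays, with bars for group means and triangles for slide 2. Bhlhe40, Ppp1r1b and Lrrc10b have no overlap between the groups, and mean differences run from -0.56 for Bhlhe40 to 0.50 for Slc18a2.

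Transmitter receptors gave a few single genes. Grm8, a presynaptic metabotropic glutamate receptor, was at 9.23, 9.25, 8.93, 8.63 and 9.15 in Tat+/Meth and at 9.92, 9.92, 9.83, 9.46 and 9.43 in Tat+/Sal mice. Its groups did not overlap, and it differed by -0.67 ± 0.17 (limma, adjusted p = 0.214), and by -0.82 within slide 3. Slc17a8, the vesicular glutamate transporter of cholinergic and some serotonergic neurons, differed by -0.58 ± 0.16 with the brightest probe and by 0.13 with another, and by -0.25 within slide 3. Grm7 was higher by 0.25 ± 0.10. Of 18 ionotropic glutamate receptor genes 1 was lower, Gria2 (-0.25 with the brightest probe, 0.21 with another), and of 20 GABA genes 1 was lower, the GABA transporter Slc6a11 (-0.33 ± 0.15). These shares, 5.56% and 5%, were below the 7.2% of all genes. Of 25 synaptic vesicle genes, the release regulator Cplx1 was lower by 0.26, and Pclo, a scaffold of the active zone (0.17), and the calcium sensor Syt1 (0.16) were higher. That was 4% lower and 8% higher, against 7.2% and 5.16% of all genes.

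The largest differences among genes whose arrays did not overlap came from many functions. The 12 largest positive ones were Rax, Atf3, Col14a1, Cd6, Cox17, Abhd3, Veph1, Cbx7, H1f4, Ceacam2, Gna14 and Mc3r, and the 12 largest negative ones Htr5b, Lipe, Abi3, Ggt1, Ccdc71, Kcnj4, Grm8, Tnnt1, Ccdc80, Acads, Trappc3 and Sgpp2. Their adjusted p in limma ran from 0.214 to 0.367. All 24 had the same direction within slide 3, but the choice of genes fixed this outcome. In each of them every Tat+/Meth array, on either slide, lay beyond all Tat+/Sal arrays. The shared direction is therefore no check on the slide. Within slide 3, 5 of the positive and 11 of the negative ones had an unadjusted p under 0.05. Non-overlap and size chose these genes, so these values are a description.

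Rax, a homeobox factor of the retina and hypothalamus, was at 6.53, 6.73, 6.36, 7.78 and 6.00 in Tat+/Meth and at 5.75, 5.12, 5.91, 5.22 and 5.34 in Tat+/Sal mice, a difference of 1.21 ± 0.31. Only 2 of 5 Tat+/Sal arrays had it well above background. Col14a1, a collagen of fibrous tissue, differed by 0.91 ± 0.25, and by 1.38 within slide 3, and was higher on the 2 slide 3 arrays of Tat+/Meth mice (mean 7.36) than on the 3 slide 2 arrays (6.58). Cd6, a T cell surface receptor, differed by 0.89 ± 0.21, with 7.75, 7.68, 6.81, 7.02 and 6.84 against 6.51, 6.41, 6.22, 6.45 and 6.08, and by 0.20 with another probe. Mc3r, a melanocortin receptor, was at 9.70, 9.88, 9.69, 9.30 and 9.57 against 9.03, 9.27, 8.74, 8.92 and 9.03 and differed by 0.63 ± 0.19. Veph1 (0.77), Ceacam2, an adhesion molecule (0.68), and Gna14, a G protein alpha subunit (0.67), were also on the positive list. Well above background in Tat+/Sal mice were 4 of 5 arrays for Col14a1, 4 of 5 for Ceacam2 and 3 of 5 for Gna14.

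Cox17, Abhd3 and Cbx7 split by slide within the Tat+/Meth group. Cox17, a copper chaperone for cytochrome c oxidase, was at 8.85, 8.96 and 9.01 on slide 2 and at 7.97 and 8.02 on slide 3, against 7.68, 7.94, 7.73, 7.61 and 7.67 in Tat+/Sal mice on slide 3. The difference was 0.84 on all arrays and 0.27 within slide 3, and Tat−/Sal mice on slide 2 averaged 8.96. Cbx7, a Polycomb protein, averaged 9.54 on slide 2 and 8.68 on slide 3 against 8.48 in Tat+/Sal mice (0.72 on all arrays, 0.20 within slide 3), and Tat−/Sal mice averaged 9.46. Abhd3, a lipase of phosphatidylcholines, averaged 6.57 and 5.91 against 5.53 (0.78 on all arrays, 0.38 within slide 3), and Tat−/Sal mice averaged 6.72. Only 2 of 5 Tat+/Sal arrays had Abhd3 well above background, so its Tat+/Sal level is uncertain. For these 3 genes the part of the slide in the difference was not tested beyond these values. Over all genes, slide 3 and slide 2 arrays of the Tat+/Meth group differed at an unadjusted p under 0.05 for 595 genes (3.99%).

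Htr5b, a serotonin receptor, had the largest negative difference, with 4.41, 6.33, 5.56, 5.62 and 6.16 in Tat+/Meth and 6.59, 6.72, 7.63, 7.79 and 6.72 in Tat+/Sal mice. The difference was -1.48 ± 0.37, or 2.78-fold, and -1.20 within slide 3, and 4 of 5 Tat+/Meth arrays had the gene well above background. Kcnj4, an inward rectifier potassium channel of forebrain neurons, was a bright gene, at 15.67, 15.27, 14.88, 15.53 and 14.64 against 15.81, 16.09, 16.04, 15.72 and 15.77, and differed by -0.69 ± 0.17 on all arrays and by -0.80 within slide 3. Tnnt1, a slow troponin T, was at 10.20, 10.12, 10.22, 10.06 and 10.43 against 11.11, 10.79, 11.27, 10.55 and 10.66 and differed by -0.67 ± 0.17. Tat+/Meth arrays had an SD of 0.14 and Tat+/Sal arrays one of 0.31, and another probe of the gene differed by -0.22.

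Several other negative differences rested on part of the Tat+/Meth arrays. Abi3, a regulator of actin, was at 7.20 and 7.78 in Tat+/Meth replicates 3 and 5 and at 9.19, 9.18 and 9.25 in the others, next to 9.28 to 9.63 in Tat+/Sal mice. Trappc3, a subunit of a vesicle tethering complex, had 11.54 and 11.53 in the same 2 replicates and 12.69, 12.34 and 12.67 in the others, against 12.70 to 12.89. Lipe, the hormone-sensitive lipase, differed by -1.0 ± 0.32 and Ggt1, which degrades extracellular glutathione, by -0.86 ± 0.28, with 1 Tat+/Sal array far above the other 4 in each, and 3 of 5 Tat+/Meth arrays had Ggt1 well above background. Ccdc71 (-0.69), Ccdc80, a secreted matrix protein (-0.66), Acads, a mitochondrial acyl-CoA dehydrogenase (-0.65), and Sgpp2, a sphingosine phosphate phosphatase (-0.59), were the other 4 of the negative list, and another probe of Ccdc71 differed by -0.05. Akt1s1, an inhibitor of mTOR complex 1, was not of the 24 because its groups overlapped, but had the largest difference of its list: it was at 8.63, 7.70, 7.70, 8.62 and 6.45 against 8.50 to 8.75, and differed by -0.80 ± 0.28.

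**Figure D4:**
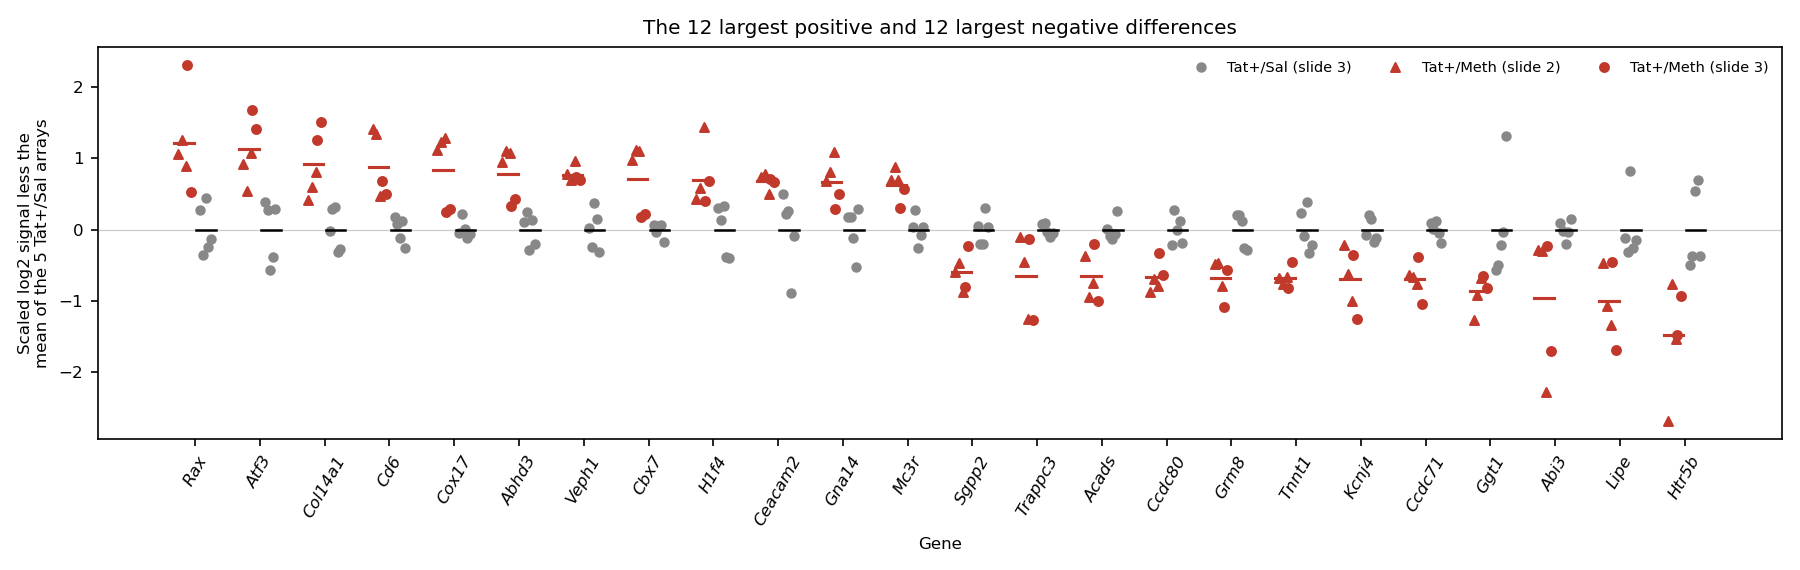
Level of the 24 genes on each Tat+ array, in log2 units less the mean of the 5 Tat+/Sal arrays, with bars for group means and triangles for slide 2. In each gene the red and grey points do not overlap, the mean difference runs from 1.21 for Rax to -1.48 for Htr5b, and Cox17, Cbx7 and Abhd3 show the slide 2 arrays apart from the slide 3 arrays.

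Genes of energy metabolism and protein synthesis had medians near 0. Of 37 complex I subunits, 4 were lower and none higher (10.8%, against 7.2% of all genes lower), among them Ndufa10 (-0.18), Ndufs8 (-0.17) and Ndufa11 (-0.15), with a median of -0.025. Of 42 subunits and assembly factors of complexes II to V, Atp5d of the ATP synthase (-0.27 ± 0.06, groups without overlap) and Uqcrc1 of complex III (-0.21) were lower (4.76%) and Cox17 higher (2.38%). Of 77 mitochondrial ribosomal proteins, 9 were lower and none higher (11.7%), led by Mrpl28 (-0.29 ± 0.08), Mrpl19 (-0.19), Mrpl47 (-0.19) and Mrpl12 (-0.16), and the median was -0.023. Within slide 3, 1 of the 37, 1 of the 42 and 3 of the 77 were lower, against 2.6% of all genes. Of 45 translation initiation factors, 6 were lower and 2 higher (13.3% and 4.44%, against 7.2% and 5.16% of all genes). Among the lower ones were Eif4g2 (-0.26), Eif3a (-0.20), Eif4a3 (-0.15) and Eif3i (-0.14). Within slide 3 no initiation factor had an unadjusted p under 0.05, and Eif4g2 and Eif3a differed by -0.10 and -0.07. Of 81 cytosolic ribosomal proteins, Rpl36a (0.23) and Rps26 (0.18) were higher and Rpl7l1 (-0.22) and Rps15 (-0.21) lower, 2.47% each way. None of these lists had a median farther than 0.03 from 0.

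Smaller metabolic and stress lists also had medians near 0, from -0.046 to 0.007. Their shares below stand beside 7.2% lower and 5.16% higher over all genes. In the list of sirtuins and mTOR complex genes, Akt1s1, Prr5l (-0.27) and Mapkap1 (-0.13, but 0.30 as the mean over its probes) were lower and Rheb, the activator of mTOR (0.24), was higher, out of 23. These were 13% and 4.35% of that list, and within slide 3, 1 was lower and none higher. Of 24 cholesterol synthesis genes, 3 (12.5%) were lower, and 1 within slide 3: the regulator Srebf2 (-0.25), Mvd (-0.22) and Fdps (-0.20 ± 0.05, groups without overlap). Of 26 antioxidant genes, 4 (15.4%) were lower, namely Gpx4, which protects membranes from lipid peroxides (-0.21), Nqo1 (-0.19), the glutathione synthetase Gss (-0.18) and Prdx3 (-0.12). Differences in that list were negative for 14 and positive for 12, with a median of -0.015, and within slide 3, 1 gene was lower. Of 30 heat shock and unfolded protein response genes, 3 (10%) were lower, namely Hspa1a (-0.46), Pdia4 (-0.29) and Sdf2l1 (-0.23), and within slide 3 they differed by -0.13, -0.06 and -0.14. Of 20 glucocorticoid response genes, the NF-kappa-B inhibitor Nfkbia (-0.33 ± 0.13) and Per1 were lower (10%), and none was within slide 3.

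Histone genes were higher on balance. Of 47 tested, 38 had a positive difference, 7 were higher and none lower (14.9%, against 5.16% of all genes higher), and the median was 0.106, and 0.105 within slide 3, where none of the 7 had an unadjusted p under 0.05. H1f4, a linker histone, was at 9.91, 10.06, 10.92, 9.88 and 10.16 in Tat+/Meth and at 9.78, 9.62, 9.82, 9.10 and 9.09 in Tat+/Sal mice, without overlap, and differed by 0.71 ± 0.21. H2bc18 (0.70 ± 0.26), H2ac4 (0.69 ± 0.25) and H4c3 (0.32 ± 0.12) followed. Clustered histone genes are near-identical in sequence, so a probe may read several of them. The mean of the list ran from -0.20 to 0.04 in Tat+/Sal arrays, with replicates 4 and 5 lowest, and from -0.08 to 0.18 in Tat+/Meth arrays. Without Tat+/Sal replicate 4, 3 of the 47 genes were higher at an unadjusted p under 0.05, against 579 of all 14901 genes.

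Olfactory, vomeronasal and taste receptors, which brain tissue hardly uses, had the highest median of the lists in this scaling, though with quantile normalization (0.082) and normexp background correction (0.073) the histone list (0.093 and 0.096) and the qPCR list (0.113 and 0.100) were above it. Of 1368 with a probe, 181 passed the filter, 6 were higher and 1 lower (3.31% and 0.552%, below the 5.16% and 7.2% of all genes), and the median was 0.155, and 0.072 within slide 3. The filter asks for signal well above background on all arrays of at least 1 group, so a dim gene can enter through its higher group. This holds also for the keratin and defensin list, where 26 of 94 genes passed. The part of the filter in both medians was not tested. Olfr870 (0.48), Olfr608 (0.45) and Olfr74 (0.28) were higher and Olfr288 (-0.40) was lower, and 2 of 5 Tat+/Sal arrays had Olfr608 well above background. Within slide 3, 5 of the list were higher and none lower. Without Tat+/Sal replicate 4, 10 of the 181 were higher and 1 lower, where over all 14901 genes 579 were higher and 1076 lower. Of 26 keratin-associated proteins and beta-defensins, Krtap31-2 (0.40), Krtap5-2 (0.21) and Krtap4-8 (0.17) were higher (11.5%) and none lower. The median of this list was 0.113, and 0.049 within slide 3, where none was higher and 1 lower. With scaling to the median of each array, the medians of the 2 lists were 0.046 and 0.004, beside -0.106 over all genes. The keratin and defensin median was 0.002 with quantile normalization and 0.031 with normexp background correction, beside -0.003 over all genes in each.

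Glial and blood markers had few members under an unadjusted p of 0.05. Of 21 oligodendrocyte genes, 17 had a negative difference and 4 were lower (19%, against 7.2% of all genes), among them the myelin genes Mag (-0.38), Ugt8a (-0.29) and Cnp (-0.25), and the median was -0.155, and -0.054 within slide 3. The list's mean ran from -0.22 to 0.14 in Tat+/Meth and from 0.01 to 0.13 in Tat+/Sal arrays. Without Tat+/Sal replicate 4 the number of lower genes was 2 of 21, against 1076 of all 14901 genes. Of 17 microglia genes the complement genes C1qb (-0.22) and C1qa (-0.20) were lower (11.8%), by 0.06 and 0.02 within slide 3. Differences in the microglia list were negative for 9 and positive for 8, with a median of -0.063, and 0.018 within slide 3. Red blood cell genes had the lowest median, -0.319 over 9 genes, with none under an unadjusted p of 0.05, and 0.087 within slide 3. Of 13 markers of thalamus, hypothalamus and septum, the hypothalamic peptide gene Hcrt (0.36 ± 0.11) and Tcf7l2 (0.23 ± 0.09) were higher (15.4%, against 5.16% of all genes) and none lower. Within slide 3 Hcrt and Tcf7l2 differed by 0.20 and 0.18, each above an unadjusted p of 0.05. Differences were positive for 9 of the 13 and negative for 4, with the lowest, -0.58, for Avp and a median of 0.046. Astrocyte, vascular, choroid plexus, interferon and cytokine lists held no gene at an unadjusted p under 0.05, and their medians were 0.012, -0.030, -0.011, -0.116 and -0.082.

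**Figure D5:**
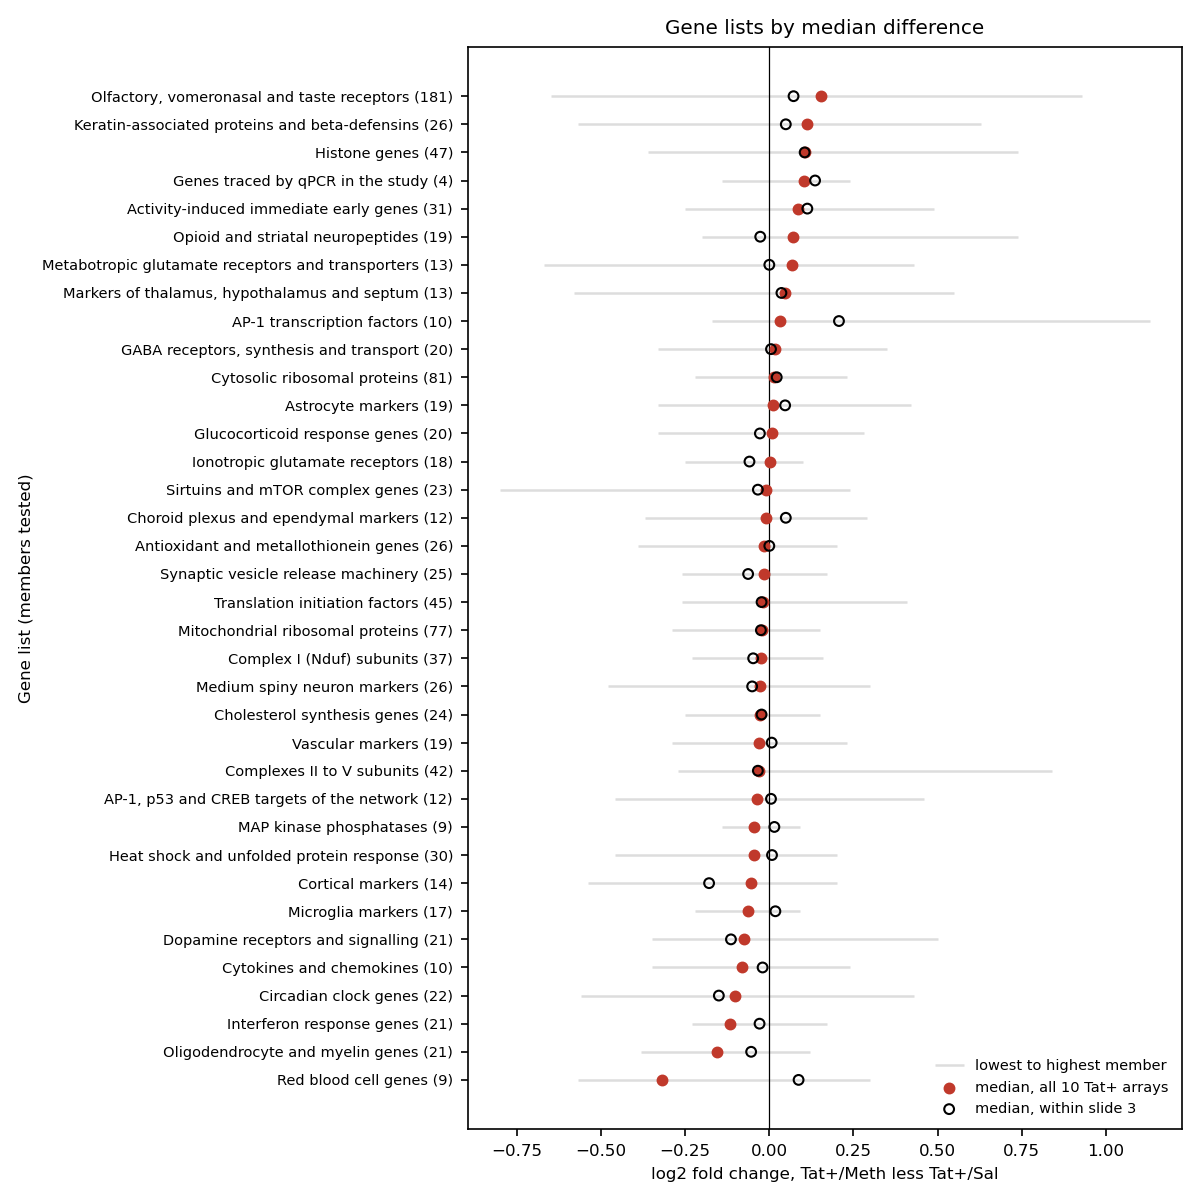
Median difference of each gene list on the log2 scale, from all 10 Tat+ arrays (red) and within slide 3 (open circles), with a grey line from the lowest to the highest member and the number of members tested. Medians run from 0.155 for the chemosensory receptors to -0.319 for red blood cell genes, and the latter is 0.087 within slide 3.

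The 4 genes that the study traced by qPCR were all above an unadjusted p of 0.05. App, the amyloid precursor protein, was at 16.35, 16.32, 16.13, 16.31 and 16.22 in Tat+/Meth and at 16.33, 16.43, 16.56, 16.34 and 16.35 in Tat+/Sal mice, a difference of -0.14 ± 0.06. Nos2, the inducible nitric oxide synthase, differed by 0.24 ± 0.12 and the deacetylase Sirt1 by 0.14 ± 0.08. Ppara, a lipid-sensing nuclear receptor, differed by 0.07 ± 0.28 with a Tat+/Sal SD of 0.83, and its sign turned under some alternatives.

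Whether Meth acted differently with and without Tat was tested by the interaction, which subtracts the Tat− difference between Meth and saline from the Tat+ one. Over all genes 5429 (36.4%) had an adjusted p under 0.05 in limma, 1888 higher and 3541 lower. All 5 Tat−/Meth arrays lay alone on slide 1, so Tat−/Meth and that slide cannot be told apart in this test. The 24 genes with the largest differences were chosen by the Tat+ part of this contrast, so no count of them is given here. For Atf3 the interaction was 0.14 ± 0.39 (adjusted p = 0.804), with a difference between Meth and saline of 0.99 in Tat− mice beside 1.13 in Tat+ mice. For Fos (0.51, adjusted p = 0.159) and Fosb (0.27, adjusted p = 0.297) it did not pass either, which does not show that the effects are alike.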

How the data were processed

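Per the file headers, the authors scanned one-colour Agilent arrays with Feature Extraction 10.7.3.1, and the deposited processed signal is an intensity corrected for background by that software. The deposited table of the series holds linear intensities that track the background-subtracted signal of the same array with a constant added, and it served as an alternative, with 7831 values below 1 set to 1 before log2. Each array has 62976 spots, of which 3671 are controls. Of 55681 probes, 27656 were given 1 symbol through accessions in RefSeq (GRCm38.p6), for 20972 symbols. Control spots and 2310 spots of the Tat+ arrays marked as outliers were left out. Signals were taken to log2 and the 75th percentile of each array was subtracted. The brightest probe stood for a gene, and genes well above background on all arrays of at least 1 of the 2 groups were kept. limma 3.58.1 in R 4.3.3 was fitted to all 20 arrays with 4 group means, and calls needed more than a 2-fold difference as well as an adjusted p (Benjamini-Hochberg) below 0.05. The script was tested on simulated data. Figures and summaries used Python 3.11.15, numpy 2.4.6, pandas 2.3.3 and matplotlib 3.10.9.

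Each mouse is 1 array, all arrays were scanned on 1 day, and the number of arrays limits the precision. The genes and gene lists were chosen with earlier results of these data known. Named genes are the 12 largest positive and 12 largest negative differences among genes at an unadjusted p under 0.05 whose groups did not overlap, the measured AP-1, immediate early, MAP kinase phosphatase and qPCR genes, and up to 4 genes of each other list with the smallest unadjusted p. Of these, the text names mainly genes at an unadjusted p under 0.05, beside genes said to be named after their values were seen. Alternatives were the scaling, background correction, filters, probe rule, outlier spots, slide, samples in the fit, test, threshold, replicate number as a block, and leaving out each array. No gene encoded in mitochondrial DNA was analysed here, and some genes of the lists are counted but not reported by name. Promoters were read from RefSeq for GRCm38.p6.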

Additional observations from a re-analysis of the deposited data

Results flagged for a closer look

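Of 236 sets of 5 arrays of a named gene, 19 held an array that stood apart from the other 4 of its group by Dixon's test, where chance flags about 1 set in 20. In Tat+/Meth mice, replicate 3 stood apart for Drd2 (10.67), Grm7 (12.68), H1f4 (10.92) and Ndufa10 (13.02). Replicate 5 did so for Eif3i (11.97), Pde1b (18.04), Plk2 (13.46) and Prdx3 (12.64). Replicate 4 did so for Hspa1a (8.46), Nos2 (9.79) and Ppp1r1b (17.97), and replicate 2 for Mrpl19 (11.57). In Tat+/Sal mice, replicate 3 stood apart for C1qb (11.55), Eif3i (11.80) and Lipe (7.67). Replicate 5 did so for Ggt1 (7.31) and Mapkap1 (10.80), replicate 4 for Uqcrc1 (13.85) and replicate 1 for Olfr74 (7.01).

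For 18 of 33 genes the interaction, the Tat+ difference between Meth and saline minus the Tat− one, had an adjusted p under 0.05 in limma. Over all 14901 genes tested, 5429 (36.4%) did. Of the 33, 24 were chosen for the size of their Tat+ difference, which is part of this contrast, so the count and signs describe these genes and test nothing about genotype. The interaction was positive for Abhd3 (3.50), Cox17 (3.25), Veph1 (2.92), Cbx7 (2.84), Mc3r (1.62), Rax (1.33) and Cd6 (1.07). It was negative for Htr5b (-2.11), Lipe (-1.57), Trappc3 (-1.39), Ggt1 (-1.27), Ccdc71 (-1.06), Sgpp2 (-0.97), Grm8 (-0.95), Kcnj4 (-0.84), Ccdc80 (-0.83), Junb (-0.74) and Jund (-0.41). The 5 Tat−/Meth arrays were the only arrays on slide 1, so genotype-specific effects and that slide cannot be told apart.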

How the results depend on the processing

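The count of genes called was 0, and it was 1 with scaling to the median, 1 with slide as a random block and 10 by the methods' t-test without adjustment (0 after Benjamini-Hochberg). Leaving out 1 array gave 0 to 1, with 1 without Tat+/Sal replicate 2. The gene called by limma was Bex6 each time, and with slide as a random block Fbxo17 (0.53) and Tuba4a (-0.25) also passed the adjusted p without the fold limit. Counts at an unadjusted p under 0.05 were 484 with scaling to the median, 1046 without scaling, 3612 over 30816 probes, 729 with slide as a fixed block, 674 on slide 3 alone, and 1233 to 2189 with 1 array left out. Within slide 3 the count was 180 with scaling to the median, and leaving out 1 array gave 0 to 8 genes called, with 8 without Tat+/Meth replicate 4 and 5 without replicate 5, where the lone Meth array is assumed to vary like the other groups. The cause was not tested.

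Signs turned for genes near 0. Scaling to the median gave Fosl2 -0.05, Jun -0.09, Junb -0.06 and Ppara -0.04, no scaling gave Jdp2 0.02, and the mean over probes gave Mapkap1 0.30. Slide as a fixed block and slide 3 alone gave Batf3 0.10, and slide as a random block gave Jun -0.01. With 1 array left out, the differences ran from -0.06 to 0.20 for Fosl2, from -0.14 to 0.15 for Jun, from -0.12 to 0.20 for Junb and from -0.10 to 0.39 for Ppara.

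Same-numbered arrays correlated at 0.0201 to 0.379, not every array correlated best with its own number, and the numbers were not taken to pair the mice. With the replicate number as a block 0 genes were called and 2106 had an unadjusted p under 0.05. Genes with few arrays well above background, such as Bex6, are limited by signal.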
